A study of Homo sapiens with 7 samples.

Results

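CYP1A1 and 6 other genes of the aryl hydrocarbon receptor pathway were followed under blue light in H4, a human neuroglioma cell line. The 7 genes were taken by symbol from the 18817 gene rows of the tables: the receptor AHR, its partner ARNT, the feedback genes AHRR and TIPARP, and the target enzyme genes CYP1A1, CYP1B1 and ALDH3A1. The set was chosen by the strong transient course of CYP1A1 over these same libraries, so the levels of CYP1A1 are described here without a test. All cultures carried Cry2Olig-PKR, in which a light-clustering plant protein is joined to PKR, the eIF2 kinase that starts the integrated stress response. They were lit without a break, at a setting of 7.5 mcd, for 0, 60, 120, 240, 480, 600 or 720 min and then lysed, and the design text states that the aim was to follow the transcripts of that response over time. One library was made at each time (n = 1), with an adaptation of CEL-Seq2, which counts transcript 3′ ends with molecular identifiers (UMIs). Lit cells without the fusion and unlit cells at later times were not analysed here, so light, PKR clustering and time in the plate cannot be told apart. The labels do not say whether the line is 1 clone or how many wells were pooled.

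The receptor is a ligand-activated transcription factor of the bHLH-PAS family. It waits in the cytosol with HSP90 and the co-chaperone p23, and on binding a planar aromatic ligand moves to the nucleus, pairs with ARNT and binds DNA elements with the core GCGTG, called xenobiotic response elements. CYP1A1, the best known target, encodes a monooxygenase that oxidises many of these ligands. Known ligands include dioxins, tryptophan metabolites such as kynurenine, and photoproducts of tryptophan, and no ligand was measured here.

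The promoters of genes with the transient course are shown with that core marked, since it is part of the elements that the receptor binds. DNA further from the starts was not searched, so a marked core need not be the element through which the receptor acts on that gene. RefSeq promoter windows on GRCh38.p14, running from 250 bases before to 50 after each start, were found for 5 of the 7 genes, with 8 start sites in all. The windows below are read 5′ to 3′ on the strand of the gene, with capitals for GCGTG or its complement CACGC. They lie at chr15:74725479-74725778 (minus strand) for CYP1A1, chr7:17298402-17298701 (plus strand) for AHR, chr5:321464-321763 (plus strand) for the upstream start of AHRR and chr3:156674340-156674639 (plus strand) for the upstream start of TIPARP.
CYP1A1: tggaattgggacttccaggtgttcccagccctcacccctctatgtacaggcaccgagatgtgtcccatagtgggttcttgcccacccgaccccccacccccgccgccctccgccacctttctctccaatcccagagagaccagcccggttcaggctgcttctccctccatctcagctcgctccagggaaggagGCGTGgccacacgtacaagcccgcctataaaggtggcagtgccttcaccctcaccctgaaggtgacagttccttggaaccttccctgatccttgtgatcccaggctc
AHR: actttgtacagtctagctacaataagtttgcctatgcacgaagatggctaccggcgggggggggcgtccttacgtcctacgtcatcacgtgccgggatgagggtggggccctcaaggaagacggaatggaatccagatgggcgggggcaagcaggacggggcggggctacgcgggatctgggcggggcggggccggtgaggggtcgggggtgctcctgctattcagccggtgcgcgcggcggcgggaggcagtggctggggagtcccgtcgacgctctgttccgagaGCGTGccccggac
AHRR: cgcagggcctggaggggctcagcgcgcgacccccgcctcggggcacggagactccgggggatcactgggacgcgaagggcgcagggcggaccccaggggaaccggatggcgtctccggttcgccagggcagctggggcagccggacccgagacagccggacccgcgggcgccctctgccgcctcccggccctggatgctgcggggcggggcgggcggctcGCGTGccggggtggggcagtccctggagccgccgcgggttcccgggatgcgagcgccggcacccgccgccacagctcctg
TIPARP: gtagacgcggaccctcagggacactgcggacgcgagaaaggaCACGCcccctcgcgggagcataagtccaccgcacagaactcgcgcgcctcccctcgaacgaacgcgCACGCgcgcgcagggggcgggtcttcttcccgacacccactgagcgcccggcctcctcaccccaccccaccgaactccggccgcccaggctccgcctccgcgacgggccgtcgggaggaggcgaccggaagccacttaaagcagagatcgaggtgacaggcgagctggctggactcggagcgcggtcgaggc
Counting the start base as 1 with no position 0, the first base of the core lies at -57 in CYP1A1, at 38 in AHR, at -30 in AHRR and at -208 and -142 in TIPARP. The core was searched on both strands. It was present in 5 of the 8 windows of these genes and in 36.5% of 35116 promoter windows of the same length. The window of the downstream start of AHRR, which is not shown, held 2 cores, at -247 and -42. The ARNT window and those of the other TIPARP starts, also not shown, held none. The longer form TNGCGTG, which contains the core, was present in 1 of the 8, that of the upstream start of AHRR, and in 5.51% of all windows. The letters TGATGNAA, a form of the composite element bound by ATF4 with C/EBP factors, were found in 0 of the 8 and in 3.62% of all. A match is a string of letters and does not show binding.

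The gene counts of the 6 complete tables summed to between 7048253 and 8911818 transcripts. The 480 min table ended at NME1-NME2 in alphabetical order with 5266123 transcripts, so TIPARP has no value at that time, while the other 6 genes do. Levels are CPM, transcript counts scaled to the effective library size, and intervals are 95% and cover counting error only. Of 8 markers that would mark glial or neural cells, VIM stood at 687 to 900 CPM, SOX2 at 15.9 to 55.4 CPM, OLIG2 at 5.02 to 20.5 CPM and SLC1A3 at 8.29 to 16.0 CPM. NES reached at most 14 transcripts in a library and AQP4 at most 1, and GFAP and S100B were listed in no library. Of 14 markers of hepatocytes, blood, endothelial, epithelial and fibroblast cells, KRT18 (95.7 to 185 CPM) and COL1A1 (68.3 to 117 CPM) passed the count filter. Of the rest, 9 had at most 9 transcripts in a library and 3 were listed in no library. OLIG2, SLC1A3 and COL1A1 bent upward (1.29, 0.85 and 0.53 in log2, edgeR adjusted p = 0.00518, 0.0348 and 0.0482), and their part in the results below was not tested. The calls of COL1A1, SLC1A3 and OLIG2 were lost in 8, 6 and 2 of 15 alternatives, all 3 without the 240 min library (adjusted p = 0.356, 0.34 and 0.113).

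In outline, CYP1A1 stood above its unlit level at every lit time and was 12.2-fold higher at 480 min. The receptor gene AHR, its repressor AHRR and CYP1B1 were highest at 240 min and came back towards their unlit levels by 720 min. TIPARP followed a steeper course among the times measured. ARNT stayed within 15.2 to 21.4 CPM, and ALDH3A1 went the other way, with its lowest level at 240 min. In bulk RNA, fewer cells expressing a gene and less of its RNA per cell cannot be told apart.

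**Figure D1:**
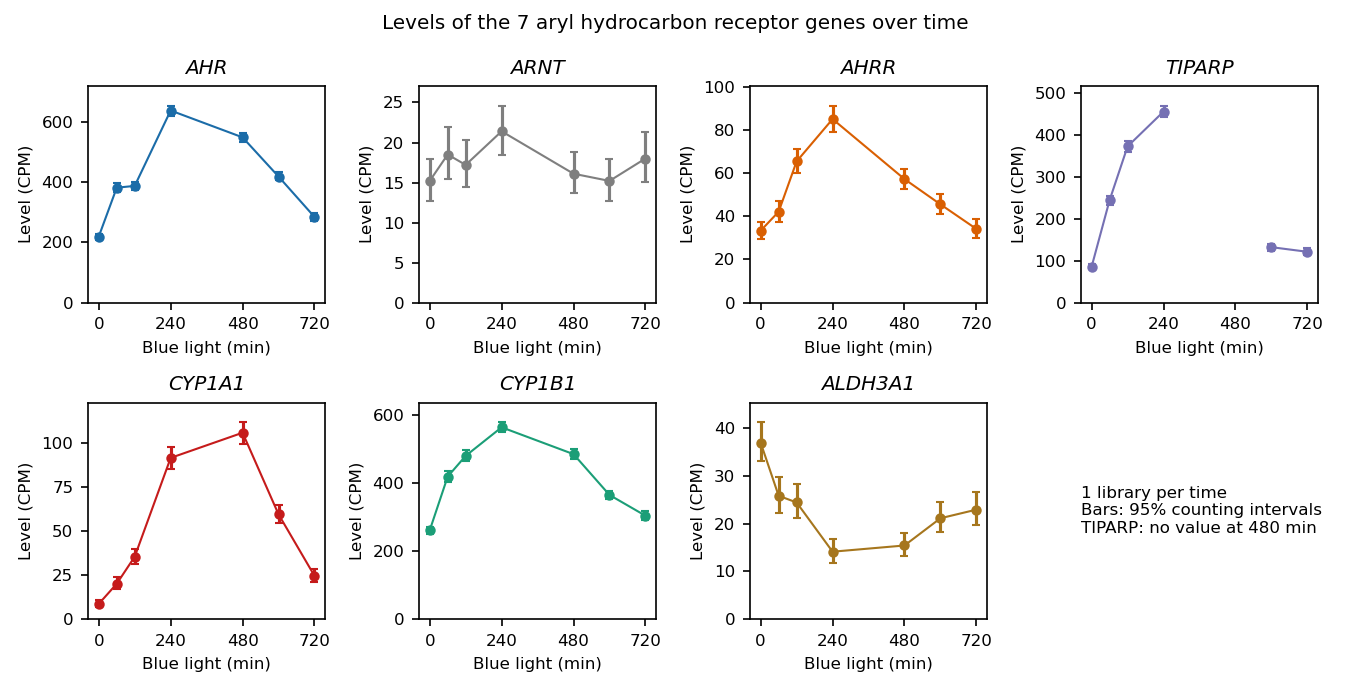
Level of each gene in CPM (vertical axis, from 0) against minutes of blue light (horizontal axis), 1 library per time, with 95% counting intervals. CYP1A1 is highest at 480 min (106 CPM), AHR, AHRR, TIPARP and CYP1B1 at 240 min, and ALDH3A1 at 0 min (36.9 CPM). TIPARP has no value at 480 min.

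The receptor itself was examined first. AHR stood at 219 CPM in the unlit library, then at 381 CPM (60 min), 387 CPM (120 min), 637 CPM (240 min), 548 CPM (480 min), 418 CPM (600 min) and 284 CPM (720 min). All 6 lit libraries were above the unlit one, and 720 min was the lowest of them. In the order of levels, the neighbours 120 and 60 min did not differ beyond counting error (1.01-fold, interval 0.963 to 1.07), and the other neighbours did. Most of the gain came in 2 steps, of 1.74-fold (1.64 to 1.85) over the first 60 min and of 1.65-fold (1.58 to 1.72) between 120 and 240 min. Against 0 min, AHR was 2.91-fold higher at 240 min (2.77 to 3.07) and 1.30-fold higher at 720 min (1.22 to 1.39).

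These folds depend on how AHR is counted. At 240 min its UMIs filled 75.7% of those possible, and reads per transcript went up with the level, being 1.49 at 0 min and 2.19 at 240 min. The fold at 240 min was 1.94 by UMIs before the correction for collisions and 4.05 by reads. The counting intervals do not cover this spread. The deposited read counts of AHR were not whole at some times (2790.2 reads at 0 min), and the sources used here do not say how such fractions were assigned.

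ARNT, the shared partner of the receptor and of the hypoxia factors, was read from few transcripts. It had 130 transcripts in the unlit library, then 133 (60 min), 132 (120 min), 195 (240 min), 163 (480 min), 133 (600 min) and 135 (720 min). These were levels of 15.2, 18.5, 17.2, 21.4, 16.1, 15.2 and 18 CPM. No neighbours in the order of its 7 levels differed beyond counting error. Between neighbouring times, only the step from 240 to 480 min did, a drop to 0.752 of the level (0.607 to 0.93). Only the 240 min library stood apart from 0 min, at 1.41-fold (1.12 to 1.77).

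AHRR encodes a repressor that resembles the receptor, competes with it for ARNT and is itself a target of the receptor. It stood at 33.3 CPM in the unlit library, then at 42.1 CPM (60 min), 65.4 CPM (120 min), 85.0 CPM (240 min), 57.2 CPM (480 min), 45.5 CPM (600 min) and 34.1 CPM (720 min). The peak was 2.55-fold the unlit level (2.23 to 2.93), and the level at 720 min was 1.02-fold (0.861 to 1.22), within counting error of it. The levels at 600 and 60 min were also within counting error of each other (1.08-fold, 0.928 to 1.26). Between 0 and 60 min AHRR was 1.26-fold higher (1.07 to 1.49), a smaller first step than that of AHR.

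TIPARP, also known as PARP7, encodes a mono-ADP-ribosyltransferase that modifies the receptor and lowers its activity. Its level was 85.5 CPM in the unlit library, then 244 CPM (60 min), 372 CPM (120 min), 455 CPM (240 min), 132 CPM (600 min) and 121 CPM (720 min). The 60 min library was already 2.85-fold above the unlit one (2.61 to 3.11), and 240 min was 5.33-fold above it (4.92 to 5.77). Between 240 and 600 min the level dropped to 0.289 of itself (0.271 to 0.309), and 600 and 720 min did not differ beyond counting error (0.921-fold, 0.843 to 1.01). At 720 min TIPARP was still 1.42-fold the unlit level (1.28 to 1.56). Its UMIs filled 63.7% of those possible at 240 min, where the fold was 3.66 by uncorrected UMIs and 7.77 by reads.

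CYP1A1 had 74 transcripts in the unlit library, then 145 (60 min), 273 (120 min), 835 (240 min), 1072 (480 min), 522 (600 min) and 185 (720 min). In CPM these were 8.64, 20.1, 35.5, 91.7, 106, 59.6 and 24.6. The unlit library was the lowest of the 7, and the 60 and 720 min libraries were the only neighbours in the order of levels that did not differ beyond counting error (720 over 60 min, 1.22-fold, 0.978 to 1.53). The largest step between neighbouring times was the 2.58-fold one from 120 to 240 min (2.25 to 2.97), after 2.33-fold in the first hour (1.75 to 3.13). From 240 to 480 min the level was higher by a further 1.15-fold (1.05 to 1.27), and this ratio was 1.1 to 1.17 under the other scalings and units. Against 0 min, CYP1A1 was 4.1-fold higher at 120 min (3.16 to 5.38) and 10.6-fold at 240 min (8.35 to 13.6). The ratio was 12.2 at 480 min (9.67 to 15.7), 6.90 at 600 min (5.40 to 8.93) and 2.85 at 720 min (2.16 to 3.78). From 600 to 720 min it dropped to 0.413 of its level (0.347 to 0.489), the steepest of the late steps. CYP1A1 used at most 23.0% of the possible UMIs, and its fold at 480 min was 11.1 by uncorrected UMIs and 12 by reads.

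CYP1B1, the related monooxygenase that also metabolises oestrogens, began from a measured level of 261 CPM. It then stood at 419 CPM (60 min), 480 CPM (120 min), 564 CPM (240 min), 485 CPM (480 min), 365 CPM (600 min) and 304 CPM (720 min). The 480 and 120 min levels did not differ beyond counting error (1.01-fold, 0.967 to 1.05), and all other neighbours in the order did. At 240 min CYP1B1 was 2.16-fold above the unlit library (2.06 to 2.27) by transcripts, 1.60-fold by uncorrected UMIs and 2.67-fold by reads, with 71.5% of the possible UMIs in use. At 720 min it stood at 1.16-fold (1.1 to 1.24). The antisense gene CYP1B1-AS1 had at most 3 transcripts in a library, and CYP1A2, the neighbour of CYP1A1 on chromosome 15, at most 0.5 before rounding.

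ALDH3A1 encodes an aldehyde dehydrogenase that in rodent liver is a classical target of the receptor. It was highest in unlit cells, at 36.9 CPM, and then stood at 25.8 CPM (60 min), 24.4 CPM (120 min), 14.1 CPM (240 min), 15.4 CPM (480 min), 21.1 CPM (600 min) and 22.9 CPM (720 min). At 240 min this was 0.381 of the unlit level (0.308 to 0.469), and at 720 min 0.620 (0.512 to 0.749). All 6 lit libraries were below the unlit one. In the order of levels, 4 pairs of neighbours did not differ beyond counting error: 60 and 120 min, 120 and 720 min, 720 and 600 min, and 480 and 240 min.

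**Figure D2:**
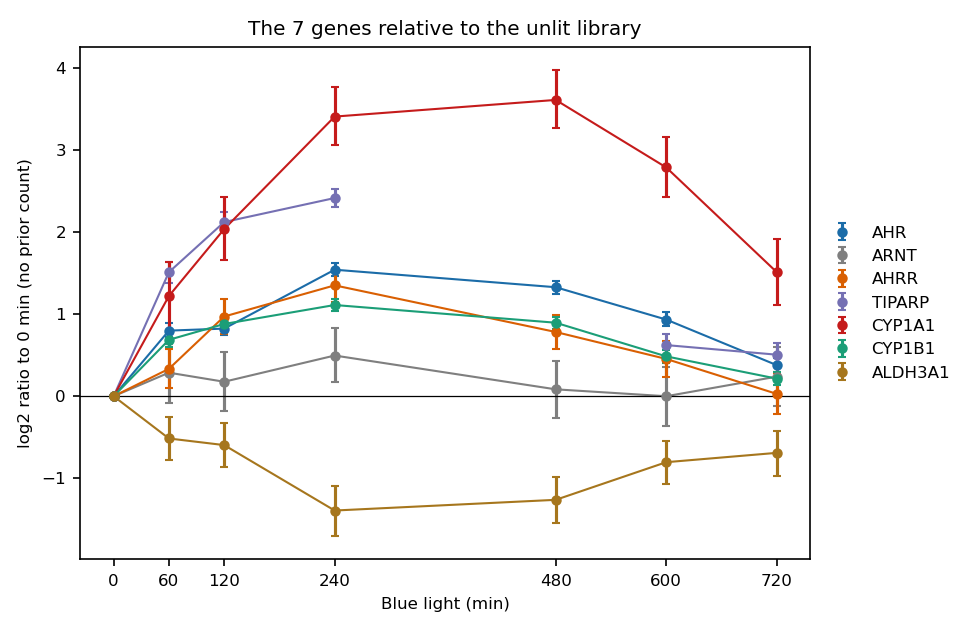
log2 ratio of each gene to the 0 min library (vertical axis, no prior count) against minutes of blue light (horizontal axis), with 95% counting intervals. CYP1A1 lies highest from 240 min on, TIPARP highest at 60 min (2.85-fold) and ALDH3A1 below 0 at every lit time.

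As a share of each gene's highest level, the unlit library held 8.17% for CYP1A1, 18.8% for TIPARP, 34.3% for AHR, 39.2% for AHRR and 46.3% for CYP1B1. At 60 min the shares were 19.0% for CYP1A1, 53.5% for TIPARP, 59.8% for AHR, 49.5% for AHRR and 74.3% for CYP1B1. At 720 min they were 23.3%, 26.6%, 44.7%, 40.1% and 53.9% in the same order, and that of AHRR was back beside its unlit share. The highest level of TIPARP is the highest one measured, without 480 min.

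Counted at 2-fold (log2 ratio with a prior count of 2), TIPARP and CYP1A1 were higher than in the 0 min library at 60 min, 2 of 7 genes against 2.07% of all genes with at least 50 transcripts in either library, and 0 of 7 were lower, against 0.375%. The same 2 of 7 were higher at 120 min, against 5.89%, and 0 lower, against 2.64%. At 240 min 5 of 7 were higher, against 10.4% of all genes, and ALDH3A1 was lower, 1 of 7 against 5.83%. At 480 min AHR and CYP1A1 were higher, 2 of 6 against 9.09%, and ALDH3A1 was lower, 1 of 6 against 6.48%. CYP1A1 alone was higher at 600 min (1 of 7, against 6.19%) and at 720 min (1 of 7, against 5.01%), and 0 were lower (against 4.35% and 4.2%). The median log2 ratio of the measured genes of the set was 0.68 at 60 min, 1.35 at 240 min and 0.24 at 720 min, beside -0.01, 0.02 and 0.02 over all genes. CYP1A1 is part of these counts and was chosen for this course, and none of these ratios has a replicate check.

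The shape over time was tested in the 6 genes other than CYP1A1, with edgeR's quasi-likelihood test fitted to all 13566 genes that passed the filter. The bend is how far, in log2, the fitted curve at 360 min lies above the midpoint of its ends at 0 and 720 min. In the alternatives with time on a log scale or as ranks, the curve is read midway on that scale, at a time before 360 min. Upward bends were called for 3 of 6 genes, against 17.0% of all genes tested. AHR bent upward by 1.33 ± 0.16 (SE, edgeR adjusted p = 0.000647), AHRR by 1.24 ± 0.217 (adjusted p = 0.00259) and CYP1B1 by 0.96 ± 0.167 (adjusted p = 0.0026). ALDH3A1 bent downward by -1.03 ± 0.221 (adjusted p = 0.00593), 1 of 6 genes against 14.3% of all. TIPARP, fitted on 6 libraries, had the largest fitted bend, 2.15 ± 0.742, which was not called (adjusted p = 0.106), and ARNT had 0.15 ± 0.226 (adjusted p = 0.628).

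The upward bends of AHR, AHRR and CYP1B1 stayed called without any 1 library (adjusted p at most 0.0285). The ALDH3A1 bend was not called without the 240 min library (-0.83, adjusted p = 0.0525) or on a log time scale (-0.60, adjusted p = 0.0678). That of TIPARP was called without 600 min (2.58, adjusted p = 0.00812), without 720 min (3.38, adjusted p = 0.00463), with DESeq2 (2.15, adjusted p = 0.0308), with time on a log scale (2.10, adjusted p = 3.09e-06) and with time as ranks (2.09, adjusted p = 0.00601). Its size was 1.23 without the 0 min library. By uncorrected UMIs the bends of AHR and CYP1B1 were 0.75 and 0.52, each still called (adjusted p = 0.00321 and 0.0194).

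**Figure D3:**
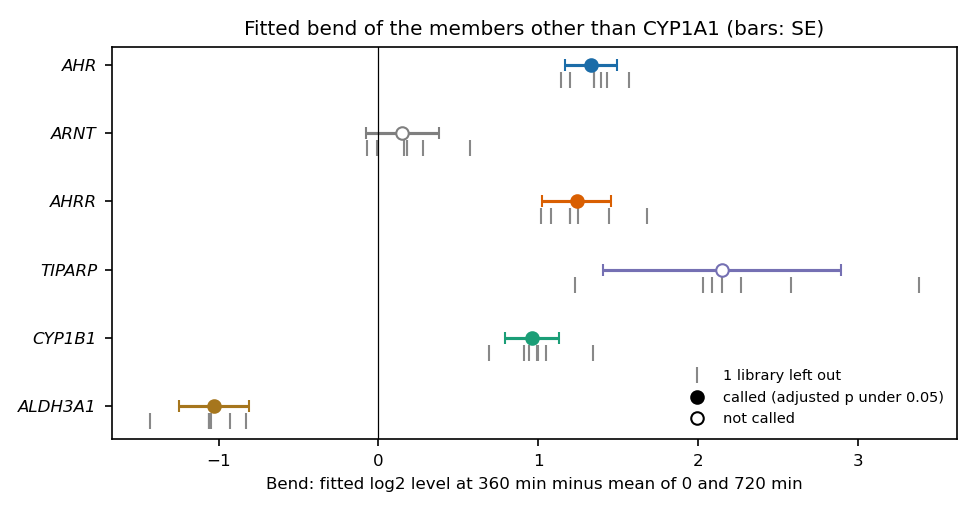
Fitted bend in log2 (horizontal axis) of the 6 genes other than CYP1A1 (rows), with SE bars and filled points where the edgeR adjusted p is under 0.05. Grey ticks show the value without each library in turn: those of AHR lie between 1.14 and 1.57, those of TIPARP between 1.23 and 3.38.

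A steady rise or fall over the 720 min was called for 0 of the 6 genes by edgeR and for 0 by DESeq2, and 0 had an unadjusted edgeR p under 0.05. Over all genes 3.94% had a rising and 2.91% a falling trend. The largest fitted trend was that of TIPARP, -1.06 ± 0.888 from 0 to 720 min (adjusted p = 0.526). Without the 0 min library this was -1.84 and called (adjusted p = 0.043).

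The other genes of the pathway were taken from lists drawn up by function, and their counts stand beside the 17.0% and 14.3% of all genes that bent upward and downward and the 3.94% and 2.91% with a rising and a falling trend. Of 20 further genes known as targets of the receptor, 11 had enough transcripts to test, and 4 bent upward and 2 downward. NFE2L2, the NRF2 transcription factor gene, stood at 148 CPM at 0 min, 326 at 240 min and 130 at 720 min, a bend of 1.13 (adjusted p = 0.0011). NEDD9, a scaffold gene of cell adhesion signalling, stood at 1.17 CPM at 0 min, 8.67 at 240 min and 0.532 at 720 min, a bend of 3.4 (adjusted p = 0.002). At most 79 transcripts of NEDD9 were counted in a library, so few stood behind its levels at 0 and 720 min. PTGS2, the inducible cyclooxygenase gene, stood at 16.5 CPM at 0 min, 59.8 at 240 min and 15.7 at 720 min (1.93, adjusted p = 0.0128). The drug transporter gene ABCG2 bent upward by 0.60 (adjusted p = 0.0416). NQO1, the quinone reductase gene often measured beside CYP1A1, bent downward by -0.46 (adjusted p = 0.029), with 1370 CPM at 0 min, 1010 at 240 min and 1450 at 720 min, and so did BAX (-1.31, adjusted p = 0.0101). VAV3 and CYP2S1 had falling trends of -2.09 and -1.31 (adjusted p = 0.00532 and 0.0248). The median bend of these 11 genes was 0.60, beside 0.01 over all genes. UGT1A1, UGT1A6 and IL1B, also in the list, reached at most 3, 5 and 3 transcripts in a library and, like CYP1A2, were not tested.

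Among 17 genes of the receptor complex and its cofactors, 16 were tested, 4 bent upward and 1 downward, and the median bend was 0.09. The chaperone gene HSP90AA1 fell over the 720 min by -0.62 in log2 (adjusted p = 0.0393), with 723 CPM at 720 min, against 1180 CPM at 0 min. The trend of HSP90AB1 was -0.26 and not called (adjusted p = 0.279), and the bends of HSP90AA1 (-0.26) and HSP90AB1 (-0.19) were not called either (adjusted p = 0.107 and 0.217). EP300, a histone acetyltransferase gene, bent upward by 1.27 (adjusted p = 0.0122), with 40.2 CPM at 0 min, 134 at 240 min and 62.5 at 720 min. NCOA1, RB1 and XPO1 also bent upward (0.64, 0.76 and 0.57, adjusted p = 0.0192, 0.0384 and 0.021), and the ubiquitin ligase gene STUB1 bent downward (-0.72, adjusted p = 0.0393).

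Of 13 other bHLH-PAS genes, 9 were tested, and 5 bent upward and 0 downward, with a median bend of 0.69. The hypoxia factor gene HIF1A, whose protein also pairs with ARNT, stood at 103 CPM at 0 min, 183 at 480 min and 92.6 at 720 min (1.01, adjusted p = 0.00188). SIM2 bent by 1.76 (adjusted p = 0.00097), the clock gene ARNTL by 0.92 (adjusted p = 0.00536) and NPAS3 by 1.20 (adjusted p = 0.0298). NPAS2 had a called bend of 0.69 (adjusted p = 0.0376), and ARNT2, the closest relative of ARNT, a bend of 0.13 that was not called (adjusted p = 0.638).

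Of 29 other P450 genes and electron donors, 15 were tested. Upward 1 gene bent, CYP27B1, the activating vitamin D hydroxylase gene (1.37, adjusted p = 0.00992), and downward 3: CYB5R3 (-0.80, adjusted p = 0.00184), POR, the reductase that feeds electrons to microsomal P450 enzymes (-0.84, adjusted p = 0.0165), and CYP20A1 (-0.77, adjusted p = 0.0267). POR had 32.0 CPM in the unlit library, against 16.5 CPM (240 min), 17.4 CPM (600 min) and 21.8 CPM (720 min). It has no value at 480 min, where CYP1A1 was highest. Among the times measured POR was lowest at 240 min, when CYP1A1 stood at 91.7 CPM. POR was still below its unlit level at 720 min, when CYP1A1 was down to 24.6 CPM. Whether their courses are linked was not tested. CYP4F11 and CYP2R1 had rising trends (1.99 and 1.30, adjusted p = 0.00611 and 0.0433), and CYP2S1, CYP4X1, CYP26B1 and CYP27C1 had falling ones (-1.31, -2.70, -1.74 and -1.62, adjusted p from 0.02 to 0.0255). CYP4X1 reached at most 16 transcripts in a library and met the filter only through the 0, 60, 120 and 240 min libraries. These were its highest levels, so the filter favoured a falling trend in CYP4X1. The median bend of the 15 was -0.07.

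The genes of tryptophan uptake and breakdown bear on the supply of ligands. Their list also held WARS and WARS2, which are tRNA synthetase genes and belong to neither. Of its 18 genes, 14 were tested, with 4 rising trends and 1 falling and with 3 upward bends and 1 downward. IDO1, which opens the kynurenine pathway, fell to 28.3 CPM at 720 min, against 102 CPM at 0 min (trend -1.77, adjusted p = 0.0141), and also had the downward bend (-0.88, adjusted p = 0.00346). The transporter genes SLC7A5 and SLC3A2 rose (1.09 and 0.89, adjusted p = 0.00998 and 0.0158), as did WARS (1.48, adjusted p = 0.00805) and KYNU (0.66, adjusted p = 0.0381). IDO2 bent upward by 3.00 (adjusted p = 0.00752) with 0.35 CPM at 0 min and 3.95 at 240 min. It reached at most 36 transcripts in a library and met the filter only through the 240, 480 and 600 min libraries, where it was highest. Its call therefore could not be checked without any of these libraries, and the filter favoured an upward bend in IDO2. CCBL2 and WARS2 bent upward by 0.90 and 0.82 (adjusted p = 0.00842 and 0.017). TDO2 had no called trend or bend and stood at 1.71 to 5.14 CPM. The median bend of the list was 0.03.

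ALDH3A1 and TIPARP were set beside their own families. Of 18 other aldehyde dehydrogenases, 14 were tested, 2 bent upward and 3 downward, and the median bend was -0.37. ALDH3A2, the nearest relative by name, had a bend of -0.48 that was not called (adjusted p = 0.137), with 160 CPM at 0 min, 82.1 at 240 min and 116 at 720 min. ALDH16A1, ALDH5A1 and ALDH1B1 bent downward (-0.80, -0.96 and -0.74, adjusted p = 0.00922, 0.0171 and 0.0172), and ALDH1A3 bent upward (0.72, adjusted p = 0.00238). ALDH1L2 had both an upward bend and a rising trend (1.11 and 3.58, adjusted p = 0.00419 and 0.00362). Of 15 other PARP genes, 14 were tested, 5 bent upward and 2 downward, and the median bend was 0.20. In order of p the upward ones were TNKS, PARP8, PARP11, PARP9 and PARP16 (1.21, 1.87, 0.84, 0.71 and 0.93, adjusted p = 0.00108, 0.00213, 0.0079, 0.0118 and 0.0259). PARP10 and PARP1, the main DNA damage sensor of the family, bent downward (-1.10 and -0.86, adjusted p = 0.0116 and 0.0119).

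The SEs of the called bends of these 7 lists lay between 0.124 (ALDH1A3) and 0.672 (IDO2), and those of the called trends between 0.148 (HSP90AA1) and 0.536 (CYP4X1). Many of these calls did not hold in each fit with 1 library fewer, and such fits also changed the counts over all genes. There, 2302 upward and 1940 downward bends became 749 and 557 without 240 min. Rising and falling trends, 534 and 395, became 88 and 47 without 600 min, but 771 and 718 without 0 min. Whether the listed genes differ from all genes in this was not tested. The bends of NFE2L2, NEDD9, SIM2, HIF1A, TNKS, CYB5R3 and ALDH1A3 and the trends of ALDH1L2 and CYP4F11 were called in every alternative that gave a value. For NEDD9 these were 14 of 15, since it did not pass the stricter count filter. Without the 240 min library, 22 of 35 bends were not called (edgeR adjusted p from 0.0507 to 0.505): those of ABCG2, BAX, NQO1, PTGS2, EP300, NCOA1, RB1, STUB1, XPO1, NPAS2, NPAS3, CYP20A1, POR, WARS2, ALDH1B1, ALDH5A1, PARP1, PARP8, PARP9, PARP10, PARP11 and PARP16. Without the 0 min library 14 of 36 were not called (adjusted p from 0.0508 to 0.34), CYP27B1 and 13 of those just named. Without 720 min 10 of 36 were not called (adjusted p from 0.0656 to 0.711), among them ALDH16A1 and CCBL2. ABCG2, NPAS2, NPAS3, STUB1, NQO1, RB1 and CYP20A1 also lost their call without 60, 120, 480 or 600 min. Of 14 trends, 12 were not called without the 600 min library (adjusted p from 0.0603 to 0.171), all but those of ALDH1L2 and CYP4F11, and 10 without the 60 min library (adjusted p from 0.0508 to 0.137), where those of VAV3 and WARS also held. Without 720 min 8 of 14 trends were not called, and 5 each without 120 or 480 min. With time on a log scale 17 of 36 bends and 4 of 14 trends were not called, with time as ranks 6 and 3, and with DESeq2 4 and 0. With UMI counts the bend of NQO1 and the trends of HSP90AA1 and KYNU were not called, and with read counts the trends of CYP27C1, CYP2R1 and HSP90AA1. The trends of HSP90AA1, KYNU and CYP2R1 were each lost in 8 of 15 alternatives.

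**Figure D4:**
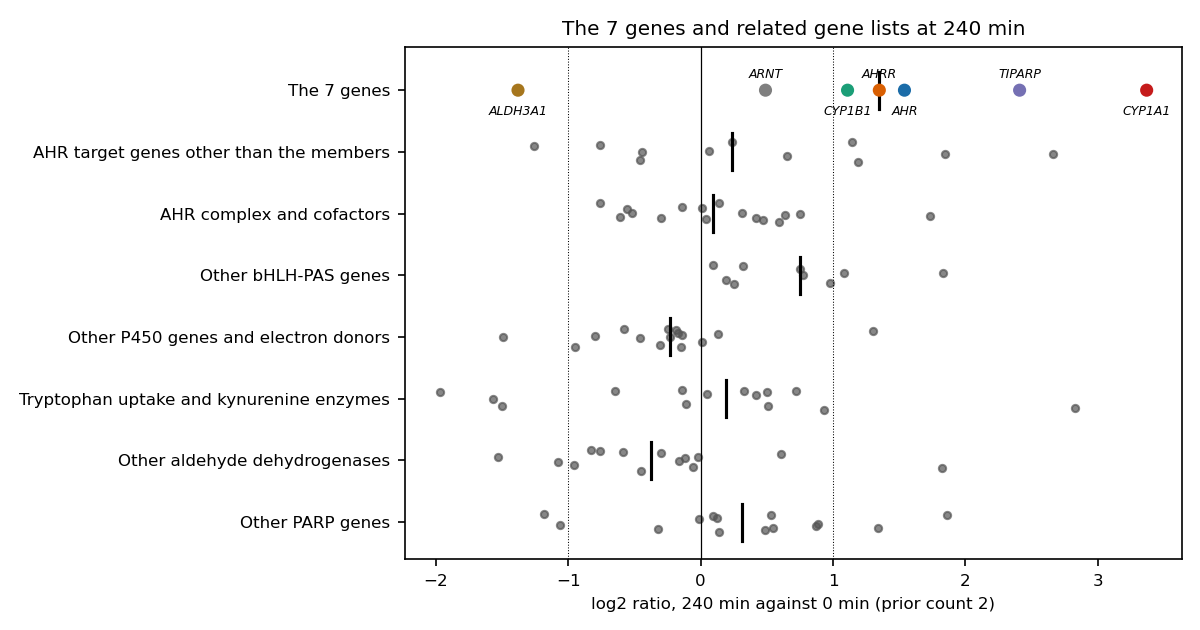
log2 ratio of 240 min to 0 min (horizontal axis, prior count 2) for the 7 genes (top row, named) and for the tested genes of each related list (other rows, 1 point per gene), with a black bar at each row's median and dotted lines at 2-fold. The named genes have a median of 1.35, the other known targets 0.24 and the other bHLH-PAS genes 0.75.

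The genes whose courses were most like that of CYP1A1 were sought among the 2389 genes that have a value at 480 min, at least 50 transcripts in some library and a log2 range of at least 1. Likeness was Pearson's r of log2 CPM over the 7 libraries, given as a description, since the genes share the libraries and were ranked on it. The 8 genes of highest r were AFF4 (0.993), AMIGO2 (0.989), FSBP (0.988), FZD6 (0.987), BIRC2 (0.986), AJUBA (0.985), ANKRD28 (0.983) and NBEAP1 (0.983). Their highest levels were 2.15 to 4.91 times the 0 min level, at 240 min for AFF4, AMIGO2, ANKRD28 and NBEAP1 and at 480 min for the others. AJUBA, a LIM-domain scaffold gene, came closest to CYP1A1 in size, with 32.0 CPM at 0 min, 157 at 480 min and 66.3 at 720 min. Within the set, AHR ranked 110 by this measure (0.93), CYP1B1 422 (0.788), AHRR 475 (0.761) and ALDH3A1 2360 of 2389 (-0.956).

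By the same measure the genes most like CYP1B1 were ERAP2 (0.995), BACH1 (0.989), KLF3 (0.989), GZF1 (0.986) and MIER1 (0.985), all highest at 240 min. Those most like TIPARP over its 6 libraries, among 3810 genes, were PPM1D, ZNF670 and ZNF484 (0.997 each) and BACH1 and CHD9 (0.996 each), also highest at 240 min. BACH1, a repressor of haem oxygenase and other antioxidant genes, was in both groups, with 33.9 CPM at 0 min, 120 at 240 min and 44.4 at 720 min. CYP1B1 ranked 81 in likeness to TIPARP (0.977), and CYP1A1 ranked 1318 (0.648).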

How the data were processed

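For each library the authors deposited expected counts per gene, which need not be whole, of reads, UMIs and transcripts. Transcripts are UMIs after a correction for collisions, which the deposited values match to within 7.4e-10. BWA and hg19 are named in the submitters' processing notes, without versions. The sources used here do not name the counting program. Values of barcode 4, which is the primer in the labels, were rounded to whole numbers. Spike-in rows, which name no gene and held at most 0.0124% of the reads, were left out.

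The filter kept genes that reached 10 counts in 3 libraries. The test was edgeR's robust quasi-likelihood test (version 4.0.16, under R 4.3.3), adjusted by Benjamini-Hochberg over all genes (threshold 0.05), with TMM scaling, the 480 min library being scaled over the genes it lists. Genes that sort after NME1-NME2 had 6 libraries, leaving 4 residual degrees of freedom for a trend and 3 for a bend (5 and 4 otherwise). No time was repeated, so the residual spread holds noise and departure from the fitted shape, and may be technical. Ratios of 2 libraries carry exact binomial intervals, levels exact Poisson ones. DESeq2 1.42.0, other counts, scalings, filters and time scales, and leaving out each library, were alternatives. The fits were also run on simulated counts, whose courses were flat or followed the fitted shapes exactly. That check does not cover courses of other shapes. The genes, lists and naming rule (from each list, up to 4 called genes per direction in order of p, and genes a result turns on) were chosen with earlier results of these data known.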

Additional observations from a re-analysis of the deposited data

Results flagged for a closer look

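The tables have 95 barcode columns beside the one analysed, and these were not used in any comparison. They held 0.0448% to 0.0667% of the transcripts of a library, above the limit that a count of 0 would allow, and 20.0 to 48.2 of these transcripts per library came from the 7 genes described here.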

How the results depend on the processing

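The log2 ratios of CYP1A1 to 0 min stayed within their counting intervals under RLE size factors, library totals, UMI counts and read counts. Of the 35 ratios of the other genes, 35 did so under both scalings and 22 under each of UMI and read counts; the 13 that moved belong to AHR, TIPARP and CYP1B1, and none changed sign. No paired analysis was possible because each time has 1 library and the labels give no replicate numbers. Without 1 library in turn, the bends ranged from 1.14 to 1.57 for AHR, 1.02 to 1.68 for AHRR, 0.69 to 1.34 for CYP1B1, -1.43 to -0.83 for ALDH3A1, 1.23 to 3.38 for TIPARP and -0.07 to 0.57 for ARNT. The trends ranged from -0.32 to 0.85 for AHR, -0.72 to 0.26 for AHRR, -0.58 to 0.25 for CYP1B1, -0.95 to -0.17 for ALDH3A1, -1.84 to -0.46 for TIPARP and -0.21 to 0.04 for ARNT. Without 0 min the ARNT bend was -0.01. On the log time scale the trends of AHRR, ARNT and CYP1B1, none of them called, were 0.22, 0.03 and 0.21, and on the rank time scale 0.01, 0.01 and 0.03. The TIPARP bend was called with DESeq2 (2.15) and on the log (2.10) and rank (2.09) time scales. The ALDH3A1 bend was not called on the log time scale (-0.60), which left 0 of 6 genes with a downward bend. On that scale ALDH1L2 had a bend of -0.42. Without 1 library, 3 to 4 of the 6 genes bent upward and 0 to 1 downward, and 0 to 1 had a falling trend. Over all genes 2302 bends were upward and 1940 downward, and without 1 library 749 to 2343 and 557 to 1905, the lowest counts being those without 240 min. Rising and falling trends numbered 534 and 395, and 874 and 727 with DESeq2. Without 1 library they numbered 88 to 771 and 47 to 718, fewest without 600 min and most without 0 min. The causes were not tested, beyond fewer libraries in each such fit. At 74 transcripts at 0 min, counting error limits the CYP1A1 ratios, and UMI saturation those of AHR, TIPARP and CYP1B1.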
